A study of Sus scrofa with 22 samples.

Results

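miR-335 was followed in small RNA libraries from the subcutaneous fat of 22 female pigs aged 6 months. Its members were the rows of the deposited count tables whose names, after removal of the species and annotation tags, read miR-335, miR-335-5p or miR-335-3p. Of 250 miRNA names in the tables, 2 met this rule: miR-335-3p, in the tables of all 3 breeds, and miR-335 with no arm in its name, in the Hampshire and Large White tables. The spelling miR-335-5p matched 0 rows. Each of the 2 names had 1 sequence among 8489 distinct sequences, so each value below is the count of a single sequence.

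The pigs were of the breeds Hampshire (5 libraries of fat labelled thick and 2 labelled thin), Pietrain (4 thick and 3 thin) and Large White (4 thick and 4 thin). Tissue was kept in RNAlater, RNA had an integrity number above 7.5, and gel-selected libraries were read for 36 cycles on a HiScan SQ. No treatment or transgene is given in the labels, and each library is listed as a separate sample. In bulk tissue, fewer cells that carry a miRNA and less of it per cell cannot be told apart.

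A miRNA hairpin is cut into a duplex of 2 arms, of which usually one is kept in the silencing complex and the other is degraded, and the bases of the seed near the 5′ end choose the target mRNAs. In human and mouse, the miR-335 hairpin lies in an intron of MEST, an imprinted gene read from the paternal copy whose product is tied to the growth of fat cells in mice. In mice, miR-335 has been described as higher in liver and white fat of obese animals and during fat cell differentiation. In the pig annotation of RefSeq (Sscrofa11.1) MIR335 also lies within the span of MEST, with MIR29B-1 and MIR29A as the next miRNA genes on one side and MIR183, MIR96 and MIR182 on the other.

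Both sequences are shown, 5′ to 3′ as listed in the deposited tables, because the seed is what identifies each arm and because the counts below are counts of these exact strings. Capitals mark the seed, bases 2 to 8.
miR-335-3p: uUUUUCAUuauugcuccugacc
miR-335: uCAAGAGCaauaacgaaaaaug

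Both sequences were 22 nt long. miR-335-3p held 11 U, 5 of them in a run at its 5′ end, and miR-335 held 12 A. GC content was 36.4% in miR-335-3p and 31.8% in miR-335. When the strands were folded against each other with RNAduplex, they formed 18 base pairs, none of them G with U, at -18.3 kcal/mol, and left 1 unpaired base at each 3′ end. The row without an arm in its name is therefore treated here as the strand opposite miR-335-3p. Within this duplex, 6 of the 7 seed bases of each arm were paired. Each seed was searched in the tables, and 0 other names and 0 other sequences had either one. No other row had 14 bases in common with either arm, so neither count could be divided with a near-identical family member in these tables.

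Library totals ran from 431542 to 3137757 reads. The smallest count listed above 0 was 6, which equalled 1.91 to 13.9 CPM (counts scaled by TMM to a common library size) depending on the library, so a 0 can stand for up to 5 reads. An abundant miRNA could be missing as well: miR-21, a miRNA of most tissues, had no listed read in replicate 3 of Large White thick fat, against a median of 24935 CPM in the other libraries. The count tables and the authors' deposited comparison did not match in Large White: deposited fold changes correlated across sequences at r = -0.653 with a refit on the labels, and at r = -0.99996 when thick replicate 1 and thin replicate 1 changed places. Large White results are therefore given with the labels as they stand and with these libraries exchanged. Of miRNAs abundant in fat, which are not specific to it, all 6 listed were found, and their sum was at least 281689 CPM in every library.

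miR-335-3p was present at low level. It had reads in 12 of the 22 libraries, 251 reads in all, with a mean of 8.88 ± 10.4 CPM (SD, n = 22) and a median of 5.96 CPM. By mean CPM it ranked 163rd of the 250 names and the other arm 228th. The names next above it by median were miR-221-5p at 7.32 CPM, miR-99b-3p at 6.80 CPM and miR-15a at 6.04 CPM. Those next below were miR-125b-3p at 5.69 CPM, miR-491 at 5.67 CPM and miR-3959 at 5.37 CPM. These medians differed from that of miR-335-3p by less than its spread over libraries. Within 2-fold of its mean level, 32 names, itself included, had reads in 1 to 22 libraries (median 15.5), and its 12 lay inside this range.

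**Figure D1:**
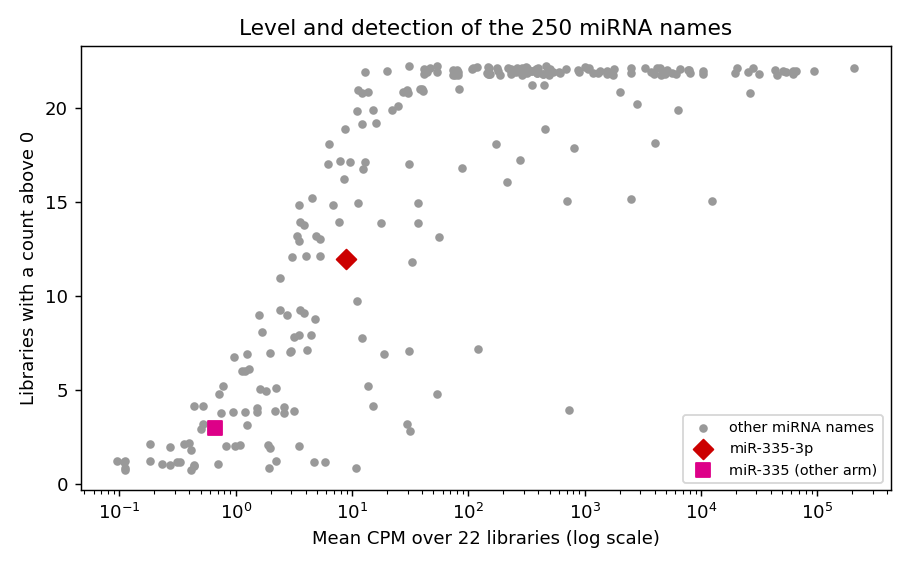
Mean level on a log axis (CPM over 22 libraries) against the number of libraries with a count above 0, for each of 250 miRNA names, with a small vertical jitter on the grey points. miR-335-3p (diamond, 12 libraries) had a mean level of 8.88 CPM, and the other arm (square, 3 libraries) lies lower on both axes.

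Among the breeds, Hampshire fat had the highest values. In Hampshire thick fat, miR-335-3p had 27.4, 20.1, 16.8, 13.0 and 0 CPM, from 32, 9, 42, 11 and 0 reads. In Hampshire thin fat it had 32.2 and 20.3 CPM, from 33 and 25 reads. Both thin fat values lay within or above the thick fat values, and 1 of 7 Hampshire libraries was at 0.

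In Pietrain thick fat, miR-335-3p had 0, 6.22, 10.4 and 0 CPM, from 0, 21, 8 and 0 reads. In Pietrain thin fat it had 5.69, 0 and 0 CPM, from 10, 0 and 0 reads. The fat classes overlapped, and all 6 Hampshire libraries with reads lay above every Pietrain library.

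In Large White thick fat, miR-335-3p had 11.1, 24.7, 0 and 7.25 CPM, from 6, 35, 0 and 19 reads. In Large White thin fat it was listed at 0 in all 4 libraries. Large White thick fat replicate 2 was the one library outside Hampshire above 13.0 CPM, and thick replicate 3 lay level with thin fat. Thick replicate 1 is one of the 2 libraries whose label and deposited comparison did not match, and without it 2 thick fat libraries have reads.

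**Figure D2:**
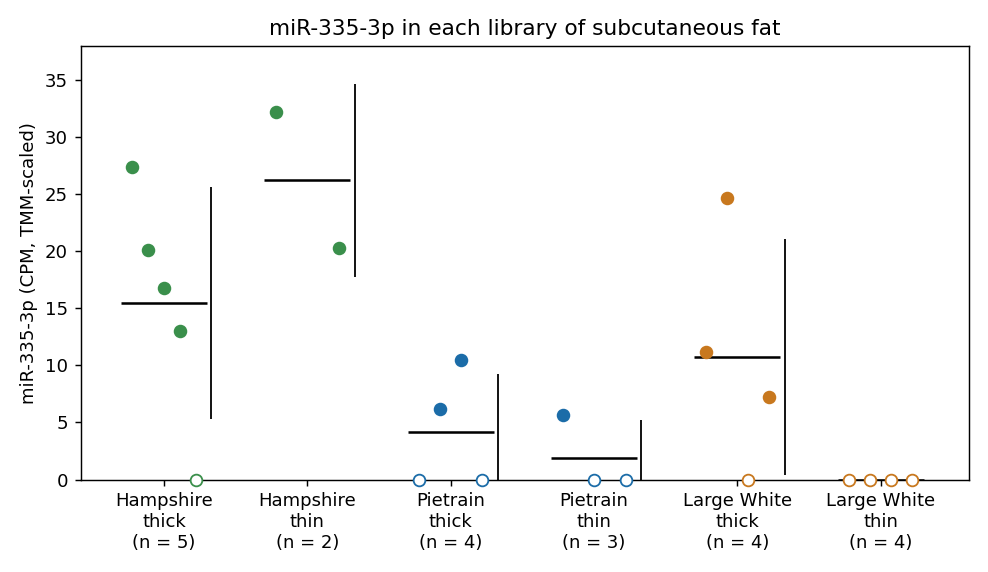
miR-335-3p in CPM for each library by breed and fat class, with open circles for libraries listed at 0, horizontal lines for group means and vertical lines for 1 SD, cut at 0. Hampshire libraries with reads lie between 13.0 and 32.2 CPM, above every Pietrain library, and Large White thin fat is listed at 0 throughout.

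Totals of libraries at 0 and of libraries with reads overlapped in each breed. The 3 Pietrain libraries with reads had totals of 759210 to 3137757, against 950751 to 2858652 in the 4 at 0. The 3 Large White libraries with reads had 558144 to 2627753, against 1447730 to 2731336 in the 5 at 0. Other names were missing from these libraries too. Names at 0 although at least 100 reads were expected numbered 8 to 18 (median 13) in the 10 libraries without miR-335-3p and 4 to 20 (median 11) in the 12 with it. Counts expected at 0 were taken from the median CPM of the breed's libraries with reads, which leaves out the zeros. They were 6.31 to 17.6 reads in Pietrain, 16.6 to 34.8 in Large White and 18.8 in Hampshire, beside the smallest listed count of 6. The part of depth, unlisted low counts and missing names in the zeros was not tested.

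**Figure D3:**
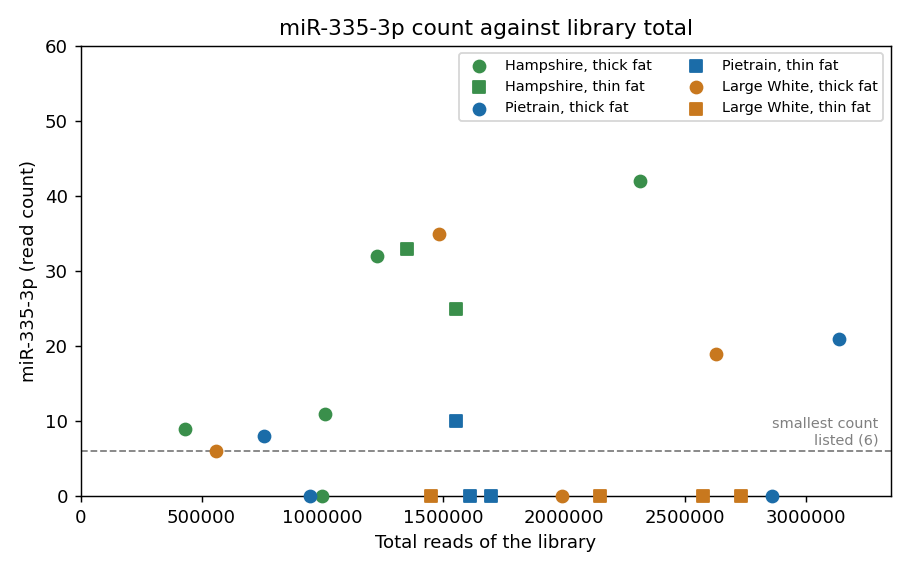
miR-335-3p read count against the total reads of each library, with the smallest listed count of 6 as a dashed line. Libraries at 0 reach from 950751 to 2858652 reads, and libraries with 6 to 9 reads are among the shallowest.

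Whether thick fat differed from thin fat was asked within each breed. Pietrain thick fat averaged 4.16 ± 5.11 CPM (SD, n = 4) and thin fat 1.90 ± 3.29 CPM (SD, n = 3). The log2 fold change was 1.00 ± 1.99 (SE; 95% interval -3.73 to 5.72), with an edgeR quasi-likelihood adjusted p of 0.993, in a fit that called 0% of 161 names (4 at an unadjusted p below 0.05, 1 called by DESeq2, 0 by limma-voom). Hampshire thick fat averaged 15.5 ± 10.1 CPM (SD, n = 5) and thin fat 26.2 ± 8.46 CPM (SD, n = 2). The log2 fold change was -0.63 ± 1.34 (SE; 95% interval -3.77 to 2.51), with an edgeR adjusted p of 0.961, and 0% of 172 names were called (5 at an unadjusted p below 0.05, 3 called by DESeq2, 0 by limma-voom). The intervals of both breeds include several-fold changes in either direction, so no fat difference was detectable at this depth and number of pigs.

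Large White thick fat averaged 10.8 ± 10.4 CPM (SD, n = 4), against 0 CPM in every thin fat library. miR-335-3p fell below the count filter of the Large White edgeR fit, which called 0% of 170 names (2 at an unadjusted p below 0.05, 0 called by DESeq2 or limma-voom). A two-sided exact permutation test of CPM gave p = 0.143 (0.286 after adjustment over 6 comparisons), and 0.143 is the smallest p these values can give, because 5 of the 8 are tied at 0. Without Large White thick replicate 3 the groups did not overlap and the exact permutation p was 0.0286. With the 2 mismatched libraries exchanged, thick fat averaged 7.98 ± 11.6 CPM and thin fat 2.78 ± 5.57 CPM (SD, n = 4 each), and the exact permutation p was 0.714.

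When all 3 breeds were fitted together, the thick minus thin log2 fold change was 1.68 ± 1.35 (SE; 95% interval -1.14 to 4.50), with an edgeR adjusted p of 0.997, and 0% of 206 names were called (5 at an unadjusted p below 0.05, 2 called by DESeq2, 0 by limma-voom). That fitted value draws on the Large White thin libraries at 0. With the 2 mismatched Large White libraries exchanged it was 0.63, with an edgeR adjusted p of 0.990 (0.844 to 0.9997 over the alternatives). On the CPM scale the mean difference within breeds was 0.758 CPM, with p = 0.844 by an exact permutation within breeds over 51450 arrangements. Reads were listed in 9 of 13 thick and 3 of 9 thin libraries. Whether the fat difference varied between breeds gave an unadjusted p of 0.0287 and an edgeR adjusted p of 0.778, with 0% of 206 names called (11 at an unadjusted p below 0.05, 2 called by DESeq2, 0 by limma-voom). With the 2 Large White libraries exchanged, its unadjusted p was 0.738 and its edgeR adjusted p 1.00 (adjusted p 0.306 to 1.00 over the alternatives).

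Single sequences were also tested as deposited, since each arm is 1 sequence. miR-335-3p had a thick minus thin log2 fold change of 0.98 ± 1.99 (SE) in Pietrain, with an edgeR adjusted p of 0.998. In Hampshire it was -0.57 ± 0.95 (SE), with an edgeR adjusted p of 0.999. In the authors' deposited table, whose log2 fold changes run thin minus thick, miR-335-3p had 0.58 in Hampshire (SE 1.11, adjusted p = 0.973), -1.03 in Pietrain (SE 2.11, adjusted p = 1.00) and -1.78 in Large White (SE 3.26, adjusted p = 1.00). The same table gave miR-335 a thin minus thick log2 fold change of 1.69 in Hampshire (SE 3.92, unadjusted p = 0.666) and -3.62 in Large White (SE 3.41, unadjusted p = 0.288). The deposited Large White values follow the exchanged assignment of the 2 mismatched libraries, not the labels. A DESeq2 refit of miR-335-3p in Large White, thick minus thin, gave 1.78 with the exchange and 6.99 on the labels.

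Breeds were then compared. The edgeR fits weighted the fat classes equally. Mean CPM and the permutation tests took all libraries of a breed together, whatever their fat class. miR-335-3p averaged 18.5 ± 10.4 CPM in Hampshire (SD, n = 7), 3.19 ± 4.26 CPM in Pietrain (SD, n = 7) and 5.38 ± 8.89 CPM in Large White (SD, n = 8). Pooled over libraries, without TMM scaling, that is 152 reads or 17.1 CPM in Hampshire, 39 reads or 3.10 CPM in Pietrain, and 60 reads or 3.86 CPM in Large White. Reads were listed in 6 of 7 Hampshire, 3 of 7 Pietrain and 3 of 8 Large White libraries.

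miR-335-3p was higher in Hampshire than in Large White by 13.2 CPM in the mean over all libraries of each breed. With the fat classes weighted equally, the edgeR adjusted p was 0.0360. That comparison called 17.5% of 206 names, 19 higher and 17 lower in Hampshire. No fold is given, because all Large White thin libraries were at 0. The adjusted p was 0.400 with the 2 mismatched Large White libraries exchanged, and ranged from 0.00636 to 0.400 over the alternatives. The call was lost without any 1 of 10 libraries, with edgeR adjusted p between 0.0523 and 0.0776: Hampshire thick replicate 1 or 2, either Hampshire thin library, Large White thick replicate 1 or 4, or any Large White thin library. The two-sided exact permutation test of CPM gave p = 0.0249, and 0.0746 after adjustment over 6 comparisons.

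Hampshire minus Pietrain gave a log2 fold change of 2.78 ± 1.41 (SE; 95% interval -0.23 to 5.78), with an edgeR adjusted p of 0.198, in a comparison that called 18.9% of 206 names, 22 higher and 17 lower in Hampshire. The two-sided exact permutation test of CPM, added after the data were seen, gave p = 0.00583 and 0.0350 after adjustment over 6 comparisons. limma-voom with quality weights also passed, at an adjusted p of 0.0350, and the alternatives spanned 0.0140 to 0.363. Before adjustment the edgeR p was 0.0674. The edgeR adjustment ran over 206 names with fat classes weighted equally, and that of the permutation test over 6 comparisons with fat classes pooled. The difference from Pietrain thus passed or missed the threshold with the test, its weighting and the set adjusted over. Pietrain minus Large White had an edgeR adjusted p of 0.727 with 0% of 206 names called (25 at an unadjusted p below 0.05, 7 called by DESeq2, 0 by limma-voom), and an exact permutation p of 0.608 for a difference in mean of -2.19 CPM.

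Markers of some other cell types differed between the breeds. In Hampshire against Large White, 1 of 2 liver markers (miR-192) and the 1 nerve marker found (miR-9) were higher. Lower were 3 of 4 smooth muscle and stroma markers (miR-145-5p, miR-145-3p and miR-214-3p). The other of these, miR-199ab-3p, had a log2 fold change of 1.16 ± 2.15 (SE; edgeR adjusted p = 0.823). None of the 3 skeletal muscle, 3 red blood cell, 4 leukocyte, 2 endothelium and 3 epithelium markers tested passed there. Against Pietrain, miR-9, miR-499-5p (skeletal muscle), miR-144 (red blood cell) and miR-223 (leukocyte) were higher. Lower were miR-486 (red blood cell) and the same 3 smooth muscle and stroma markers. miR-144 and miR-223 stood at 0 in every Pietrain library. No liver, endothelium or epithelium marker passed against Pietrain. Of all 206 names, 17.5% were called against Large White and 18.9% against Pietrain. The liver miRNAs miR-122 and miR-192 summed to 22.3 to 27705 CPM in Hampshire. Their sum was 0 to 7820 CPM in Pietrain and 0 to 3791 CPM in Large White. miR-192 had no row at all in the Pietrain and Large White tables, so every library of these breeds stood at 0 for it. The 4 smooth muscle and stroma miRNAs, miR-199ab-3p included, summed to 2939 to 38370 CPM in Hampshire. They summed to 4727 to 25506 CPM in Pietrain and 5341 to 29383 CPM in Large White. miR-214-3p had no row in the Hampshire table, so every Hampshire library stood at 0 for it. miR-145-5p and miR-145-3p stood at 0 in every Hampshire thin library, and their sum had a median of 0 CPM over the 7 Hampshire libraries. Whether such missing rows and zeros reflect the tissue was not tested. The nerve miRNA miR-9 ran from 73.9 to 292 CPM in Hampshire, 37.0 to 95.7 CPM in Pietrain and 22.3 to 92.1 CPM in Large White. The skeletal muscle miRNAs, 3 of 6 found, summed to 334 to 2379 CPM in Hampshire, 263 to 1808 CPM in Pietrain and 287 to 1138 CPM in Large White. Without the 2 libraries richest in miR-122, which were Hampshire thin replicate 1 and thick replicate 3, the mean difference of miR-335-3p was 10.8 CPM in Hampshire minus Large White, against 13.2 CPM with them, with an edgeR adjusted p of 0.0908 and an exact permutation p of 0.0800. In Hampshire minus Pietrain it was 13.0 CPM, against 15.4 CPM with them, with an edgeR adjusted p of 0.363 and an exact permutation p of 0.0139. The part of other tissues in the breed difference was not tested. The labels do not say whether breeds were prepared or sequenced together, so breed and any such batch cannot be told apart.

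The other arm was read in 3 libraries, each of which also had a high count of miR-335-3p. Hampshire thick replicate 3 had 42 reads of miR-335-3p and 8 of miR-335 (16.8 and 3.20 CPM), a ratio of 5.25. Hampshire thin replicate 1 had 33 and 6 reads (32.2 and 5.86 CPM), a ratio of 5.50. Large White thick replicate 2 had 35 and 8 reads (24.7 and 5.64 CPM), a ratio of 4.38. All 3 had more of the 3p arm, with 110 reads of miR-335-3p against 22 of miR-335 when pooled. Only a library whose other arm reached 6 reads can give a ratio, so these 3 values say nothing of how far the ratio varied.

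In the 9 libraries with reads of miR-335-3p alone, its counts were 6 to 32, below the 33 to 42 of the libraries where both arms were read. The highest of these, Hampshire thick replicate 1, had 32 reads, and the smallest listed count of 6 for the other arm would have given a ratio of 5.33, inside the measured range of 4.38 to 5.50. The other 8 had 25 reads or fewer, where a ratio of 4.38 would put the other arm below 6 reads and so out of the tables. No library had reads of miR-335 without miR-335-3p, and miR-335 was at 0 in the remaining 19 libraries, all 7 Pietrain ones included. The sum over all libraries, 251 against 22 reads, gives 11.4, but it takes each unlisted count as 0. The arm ratio could be formed in 3 libraries, 2 of Hampshire and 1 of Large White, so it was not tested between breeds or fat classes, and miR-335 passed the filter of no fit.

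**Figure D4:**
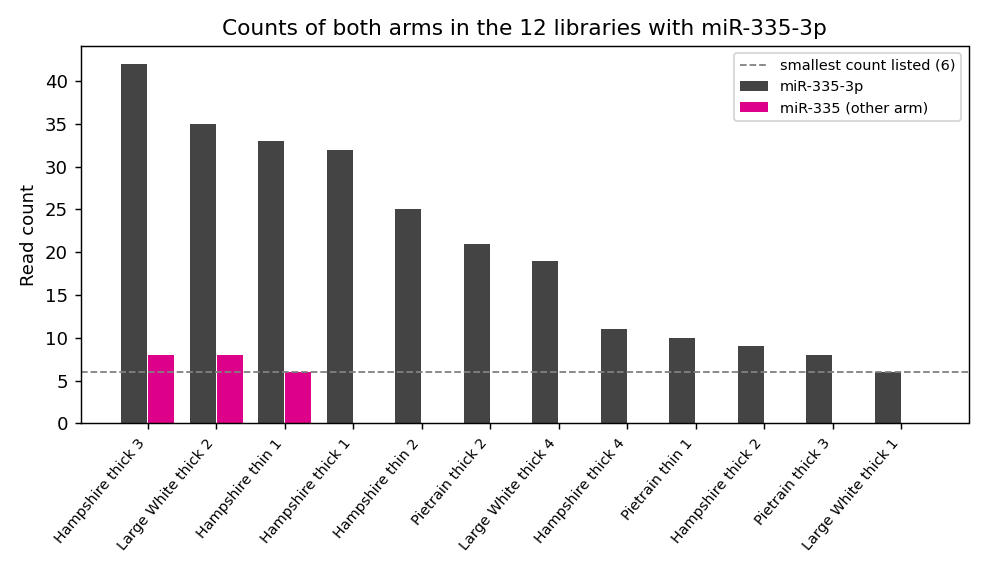
Read counts of miR-335-3p (dark bars) and of miR-335, the other arm (bright bars), in the 12 libraries with miR-335-3p, in order of its count, with the smallest listed count of 6 as a dashed line. The other arm appears in the 3 libraries with 33 or more reads of miR-335-3p.

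Of the neighbouring miRNA genes, miR-29a and miR-182 were read in all 22 libraries and miR-29b in 21, and miR-96-5p had 12 reads in a single library, Hampshire thin replicate 2 (9.72 CPM). The name miR-183 matched 0 rows. miR-29b was matched to MIR29B-1 by name, and the name states no gene copy, so its reads cannot be assigned to that gene alone. miR-29a, a repressor of collagen mRNAs, had 1012 ± 167 CPM in Hampshire (SD, n = 7), 861 ± 190 CPM in Pietrain (SD, n = 7) and 751 ± 180 CPM in Large White (SD, n = 8). Its Hampshire minus Large White log2 fold change was 0.42 ± 0.18 (SE), with an edgeR adjusted p of 0.107. miR-182, of a cluster best known from sensory cells, had 63.2 ± 46.8 CPM in Hampshire (SD, n = 7), 29.4 ± 10.5 CPM in Pietrain (SD, n = 7) and 39.9 ± 14.2 CPM in Large White (SD, n = 8). It was higher in Hampshire than in Pietrain by a log2 fold change of 1.23 ± 0.38 (SE; edgeR adjusted p = 0.0292), and its difference from Large White, 0.81 ± 0.37 (SE), had an edgeR adjusted p of 0.124. miR-29b had 28.7 ± 15.8 CPM in Hampshire, 30.5 ± 11.2 CPM in Pietrain and 31.3 ± 14.5 CPM in Large White. miR-29a, miR-29b and miR-182 did not pass the test between thick and thin fat.

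Of 36 miRNAs listed from other imprinted loci, chiefly the DLK1-DIO3 cluster, which is read from the maternal copy, 11 were found as 13 names and 10 names were tested. Between thick and thin fat over all breeds, 0 rose and 0 fell, as over all 206 names. In Hampshire against Large White, 1 of the 10 was higher and 0 were lower (10%), beside 17.5% of all 206 names. This was miR-381-3p of the DLK1-DIO3 cluster. It had 7048 ± 2713 CPM in Hampshire (SD, n = 7), 2559 ± 1249 CPM in Pietrain (SD, n = 7) and 3222 ± 730 CPM in Large White (SD, n = 8). Its log2 fold change was 1.26 ± 0.28 (SE; edgeR adjusted p = 0.00355) against Large White and 1.59 ± 0.29 (SE; edgeR adjusted p = 0.000570) against Pietrain. The median log2 fold change of the 6 tested names with no group at 0 was -0.06 in Hampshire minus Large White, beside 0.01 over the 157 such names of all. Nothing particular to imprinted loci can be read from these counts.

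A list of 20 tested miRNAs linked to obesity and fat cell differentiation had 0 called between thick and thin fat. In Hampshire against Large White, 3 were higher and 1 lower, or 20% of the list beside 17.5% of all names, with a median log2 fold change of 0.17 beside -0.02 over all 206 names. In Hampshire against Pietrain, 4 were higher and 1 lower, or 25% beside 18.9% of all names. Both shares lay near the background. The log2 fold changes that follow are of Hampshire minus Large White. miR-27a, a repressor of fat cell differentiation in mouse and human cells, was higher by 1.01 ± 0.15 (SE; edgeR adjusted p = 0.000155). miR-148a-3p, an abundant fat miRNA, was higher by 0.85 ± 0.15 (SE; edgeR adjusted p = 0.000680). miR-103, which lowers insulin sensitivity in obese mice, was lower, at -0.94 ± 0.18 (SE; edgeR adjusted p = 0.000847).

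Of 21 tested miRNAs that, like miR-335, lie in introns of other genes, 0 were called between thick and thin fat. In Hampshire against Large White, 4 were higher and 4 lower, or 38.1% of the list beside 17.5% of all names (19 higher and 17 lower). In Hampshire against Pietrain, 4 were higher and 4 lower, or 38.1% beside 18.9% (22 higher and 17 lower). No test sets the list against the other names. Values of single members are again log2 fold changes of Hampshire minus Large White. miR-151-3p, hosted by PTK2, was higher by 0.68 ± 0.12 (SE; edgeR adjusted p = 0.000499). miR-455-5p, hosted by COL27A1, was higher by 0.98 ± 0.18 (SE; edgeR adjusted p = 0.000847). miR-140-3p, hosted by WWP2 and known from cartilage, was lower, at -0.68 ± 0.15 (SE; edgeR adjusted p = 0.00297). These lists overlap in members such as miR-103 and miR-455-5p.

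Patterns most like that of miR-335-3p were sought among 108 names with reads in all 22 libraries, after each breed's mean was taken out. miR-10384 came first with Pearson r = 0.516 and Spearman rho = 0.470, then miR-125b at r = 0.379 and miR-151-3p at r = 0.326. The most opposite were miR-195 at r = -0.420 and miR-10b-3p at r = -0.395. The median over the 108 names was 0.00764 and 1 name passed 0.5. The libraries share depth and scaling, and 10 of the 22 values of miR-335-3p are 0, so these coefficients describe order of likeness and nothing more.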

How the data were processed

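A NEBNext kit for small RNA was used for the libraries, per the labels' protocols. Tools in the submitters' processing notes are bcl2fastq, FastQC and DESeq2, and the build is Sscrofa10.2; trimmer, aligner and miRNA annotation release are not given in the sources used here. The authors deposited raw read counts per sequence for each breed, and no sequence has a count of 1 to 5. They also deposited a comparison of fat classes per breed which, per the file headers, holds p-values, a test score, a mean signal and log2 fold changes with standard errors. Its sign was found by refitting.

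Counts were summed by miRNA name; unnamed rows, 0.0480% of reads, were left out. The main test was edgeR 4.0.16 quasi-likelihood (robust, TMM, filterByExpr, Benjamini-Hochberg, threshold 0.05) in R 4.3.3, fitted over all names. A standard error is the log2 fold change over the square root of F. The plan was the same test in Large White; miR-335-3p fell below that filter, so a two-sided exact permutation test of CPM over libraries stands there. The permutation tests were added after the data were seen, and the 6 permutation p-values were adjusted together. CPM are counts scaled to TMM library sizes over 22 libraries. Alternatives were other scalings, no filter, a filter of 10 CPM, DESeq2 1.42.0, limma 3.58.1 voom, exchanged Large White libraries, zeros set to 5 reads, and leaving out libraries. The tests were checked on simulated counts. Duplexes were folded with ViennaRNA 2.7.2.

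The members and lists were chosen with earlier results of these data known. Listed names were matched to the tables' spelling of the same mature miRNA, 7 of them after the data were seen. Apart from the cell type markers, members of a list were named if among the 2 of smallest p per direction in Hampshire minus Large White. Of these, only members that passed the threshold are given. Those of like pattern were the highest and lowest correlations. Intervals cover 95%. The spread behind a p-value of a fit is that between libraries around the fitted means, estimated with information from the other names. That of a permutation test is between the libraries compared, which for breeds takes in both fat classes. Reads carry no molecular identifiers, so PCR copies count as reads. Sequences are as deposited, and coordinates are not given because the annotation is of another assembly.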

Additional observations from a re-analysis of the deposited data

How the results depend on the processing

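Of 91 other settings over the 8 comparisons of miR-335-3p, 82 kept its direction and side of the threshold. Of 130 settings that left out 1 library, 118 did. Some of these could change little. Keeping each name's most abundant sequence, or dropping its rarer single-base variants, left the counts of miR-335-3p as they were. Comparisons of 2 breeds by edgeR were also refitted without libraries of the breed not compared. Hampshire minus Large White (adjusted p = 0.0360 with edgeR) gave 0.400 with Large White thick and thin replicate 1 exchanged, 0.0908 without the 2 libraries richest in miR-122, 0.0746 by exact permutation adjusted over 6, and 0.0278 to 0.0776 without 1 library. Hampshire minus Pietrain (0.198) gave 0.0350 with limma-voom, 0.0350 by exact permutation and 0.0140 with each 0 set to 5 reads. Pietrain minus Large White (0.727) turned direction at 0.9999 with the exchange, at 0.608 by exact permutation and 0.722 with each 0 set to 5 reads; without 1 library it ran from 0.609 to 0.9999, and turned without Pietrain thin replicate 1. Large White thick against thin ran from 0.0286 to 0.143 by exact permutation without 1 library. The causes were not tested. The Large White edgeR fit gave a value with no filter (adjusted p = 0.997). With a filter of 10 CPM no value was given in Pietrain or Large White, nor in Pietrain without thick replicate 2 or 3. Names called ran from 32 to 57 in Hampshire minus Large White (36 with edgeR, 57 with DESeq2), from 34 to 54 in Hampshire minus Pietrain (39 and 54), and from 0 to 7 in the other comparisons. Without Hampshire thin replicate 2, both Hampshire comparisons of breeds called 22. No paired analysis was possible because replicate numbers follow accession order and the labels pair nothing across groups. With 1 sequence per arm, its make-up was not compared between groups. Counts of 6 to 42, with lower ones unlisted, limit every value. The simulated counts had changes in names drawn from all levels and no cut of low counts. Their recovery therefore does not give that of miR-335-3p. In Hampshire minus Large White, 30% of 2-fold and 62% of 4-fold changes among 206 names were recovered. The fat test over all breeds recovered 50% and 64%, and Hampshire thick minus thin fat 2% and 27.4% (203.2 names on average).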
